A study of Homo sapiens with 8 samples.

Results

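The hepatocyte transcription factors examined here were HNF4A, FOXA1, FOXA2, FOXA3, CEBPA, CEBPB, ONECUT1 and NR5A2, the DNA-binding proteins that hold hepatocyte identity. They were taken by gene symbol from the deposited table, and they are 8 of its 60230 genes. All 8 were among the 13400 genes that had enough counts to be tested. In human adults and in liver cell lines, these factors bind together at the enhancers of liver genes and also at each other's promoters, so that they form a network. FOXA proteins open chromatin, HNF4A and NR5A2 are nuclear receptors that drive lipoprotein and bile acid genes, C/EBP proteins control gluconeogenic and acute phase genes, and ONECUT1, also called HNF6, acts early in liver and bile duct development. The cell line HepG2, from a human liver tumor, is known to express most of them.

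The study asked whether plastic-related compounds are toxic to HepG2 cells that overexpress the drug-metabolizing enzyme cytochrome P450 2C19. All groups were this blasticidin-selected CYP2C19-overexpressing line, treated for 24 h with DMSO alone or with compound 4 (labelled metylcresol), compound 5 (tetrabut) or compound 6 (cyclohexil), with 2 libraries in each of the 4 groups. Each compound was given at its own IC50, so the concentrations were close but not the same. The labels give day 1 and day 2 as the time of the libraries of each group, whereas the methods give 24 h for all. The day was taken here as the replicate number, which is an assumption. The labels do not say that the replicates came from separate cultures, so the p-values measure the spread between these libraries, which may be technical. Compounds 4 and 6 are methylene-bridged bisphenols with a methyl group on each ring, and they carry tert-butyl and cyclohexyl groups, respectively, whereas in compound 5 the rings carry only tert-butyl groups beside the hydroxyl and are joined through an ethane.

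Total counts were between 9791659 and 17814595 per library. Levels are given in CPM, counts scaled to a common depth by the TMM method, and differences as log2-fold changes, both from edgeR. Adjusted p-values come from the quasi-likelihood test of edgeR, with the Benjamini-Hochberg adjustment over the 13400 genes, and a gene was called at an adjusted p under 0.05. The hepatocyte markers were all expressed, with a summed level of 55400 to 59900 CPM over 10 genes with DMSO, 39000 to 47500 with compound 4, 47700 to 48700 with compound 5 and 42200 to 48700 with compound 6. The largest part was ALB, with 20700 and 19300 CPM with DMSO and a log2-fold change of −0.26 with compound 4, not called. APOA1, AFP, APOB and TF were called lower with compound 4. APOA2 (0.27) and TTR (0.25) went the other way without a call, and FGB was called higher with compound 5 (0.53). The fibroblast markers COL1A2, LUM, DCN and VIM, the endothelial markers KDR and TEK, and the leukocyte marker PTPRC had no count in any library, and the 5 endothelial and 5 blood cell markers summed to 0.74 to 2.08 and 1420 to 2190 CPM over all libraries, with nearly all of the blood cell sum from LYZ. The summed level of all 8 fibroblast markers was 17.7 to 23.4 CPM with DMSO, 34.2 to 34.3 with compound 4, 15.0 to 17.3 with compound 5 and 22.5 to 26.9 with compound 6. Within this sum, PDGFRB went from 9.12 and 5.02 CPM with DMSO to 23.2 and 25.3 with compound 4. ACTA2 went the other way, with a log2-fold change of −0.43. The 8 cholangiocyte or progenitor markers summed to 985 to 1270 CPM with DMSO, 1290 to 1840 with compound 4, 1030 to 1280 with compound 5 and 1320 to 1590 with compound 6. The largest part of this sum was SPP1, with 748 and 516 CPM with DMSO and 1320 and 811 with compound 4. With compound 4, the log2-fold changes were 0.75 for SPP1 and 0.56 for KRT19. They were −0.30 for SOX9, −0.18 for EPCAM, −0.42 for CD24 and −0.01 for SOX4, and none of these genes was called. The part of these shifts in the results below was not tested, and in bulk RNA fewer cells of a kind cannot be told apart from less RNA per cell.

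Across the network, CEBPB rose with compound 5 and ONECUT1 fell with compound 4, and the other members were not called. With compound 4, 1 of 8 members was called, against 9.51% of all tested genes. That member was lower, as were 3.91% of all genes, and 0 members were called higher, against 5.6%. With compound 5, again 1 of 8 was called, against 8.3% of all genes, and it was higher, as were 5.35%, while 0 were lower, against 2.95%. With compound 6, 0 members were called, against 0.575% of all genes, of which 0.493% were higher and 0.0821% lower. At an unadjusted p under 0.05, 3 members stood out with each compound, against 27.5%, 28.4% and 18.6% of all genes. The libraries of the 2 groups did not overlap for 5, 5 and 7 of the 8 members with compounds 4, 5 and 6, against 58.4%, 59.5% and 55.4% of all genes. The numbers of members called are close to these backgrounds and are no result about the members as a group. DESeq2 called 1, 1 and 0 members, but with compound 4 its call was CEBPB (adjusted p = 0.0034) and not ONECUT1 (0.057). The 3 comparisons share the DMSO libraries.

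**Figure D1:**
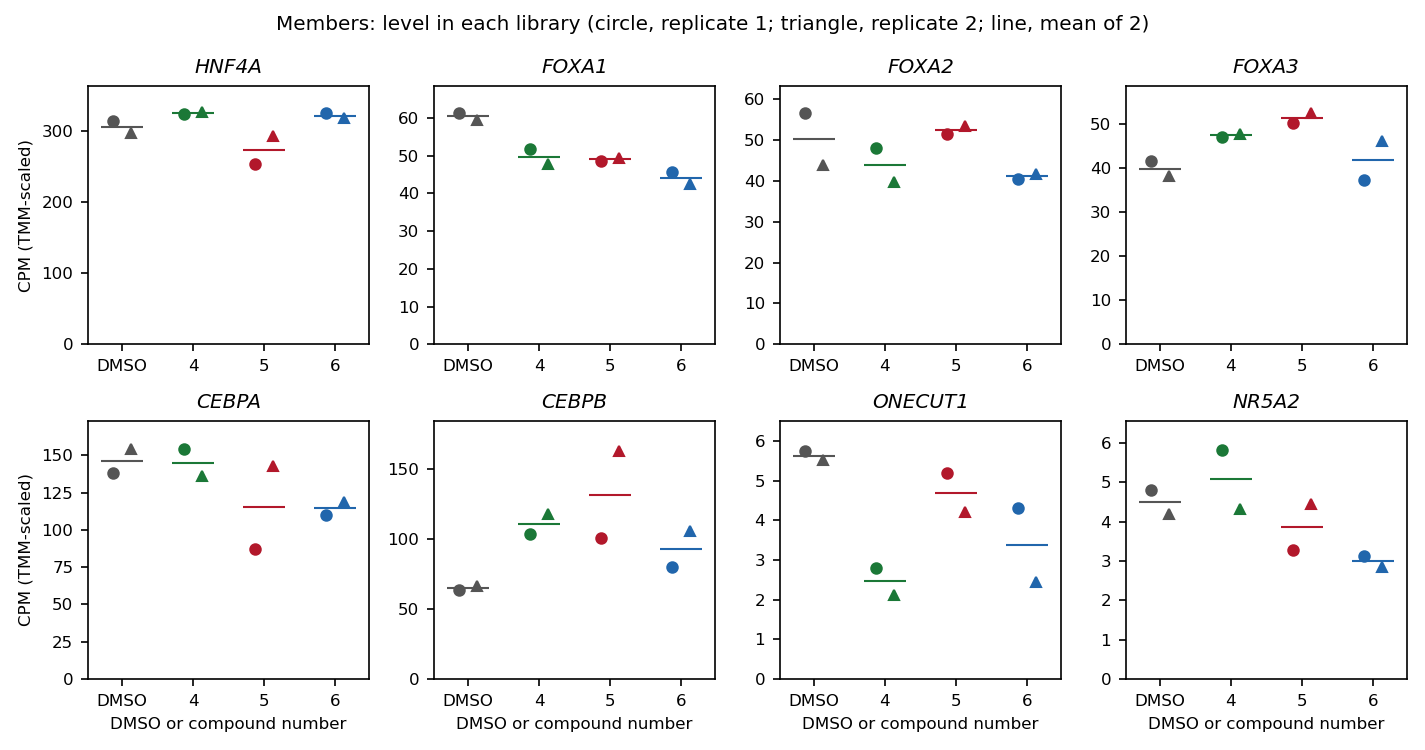
Level of each of the 8 factors in each library, in TMM-scaled CPM on linear axes from 0, by treatment (DMSO or compound number), with circles for replicate 1, triangles for replicate 2 and lines for the mean. CEBPB lies above both DMSO libraries (63.4 and 66.3 CPM) in all treated libraries, and ONECUT1 is lowest with compound 4 (2.81 and 2.13 CPM).

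In the control cells treated with DMSO, the members differed widely in level per length. Divided by the summed exon length of each gene, CEBPA had the highest level at 55.5 ± 4.28 CPM per kb (SD, n = 2), followed by HNF4A at 41.8 ± 1.58 and CEBPB at 33.2 ± 1.04. The 3 FOXA genes were lower, with 19.3 ± 3.43 CPM per kb for FOXA2, 18.2 ± 1.13 for FOXA3 and 15.2 ± 0.31 for FOXA1. ONECUT1 at 1.46 ± 0.039 and NR5A2 at 0.596 ± 0.0589 CPM per kb were far below the rest. The libraries of FOXA2 (21.8 and 16.9 CPM per kb) and FOXA3 (19.0 and 17.4) overlapped, so their order was not resolved, whereas the libraries of all other neighbours in this order did not overlap. The place of FOXA1 depends on the length used, so the order of the 3 FOXA genes is not settled. Its summed exons span 3982 bases and its longest transcript 2862. These lengths are 2603 and 2422 bases for FOXA2 and 2192 and 1989 for FOXA3. The counts behind ONECUT1 (26 to 74 per library) and NR5A2 (30 to 78) were small, while those of the other 6 members were between 380 and 5160.

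Promoter sequence is shown for the 2 called members and for HNF4A, which is known to be transcribed from a distal and a proximal promoter. RefSeq entries on GRCh38.p14 were matched for 7 of the 8 members, with FOXA2 not matched. Windows of 250 bases before each RefSeq start were searched on both strands for 7 motifs, and 0 matches overlapped another motif. The motifs were the TATA box TATAAA (in 10.8% of the 34943 windows of all genes), the cyclic AMP response element core TGACG (21.2%), the composite C/EBP-ATF site TGATGNAA (3.15%), the HNF1 element GTTAAT (6.24%), the FOXA core TGTTTNC (15.5%), the ONECUT core ATTGAT (5.58%) and the HNF4 direct repeat CAAAGTCCA (0.326%). Capitals mark matches in either orientation, and a match is a description of the letters only. The lines give HNF4A at its distal start (chr20:44355449-44355698, plus strand), HNF4A at its proximal start (chr20:44400989-44401238, plus strand), CEBPB (chr20:50190580-50190733, plus strand, upstream of its annotated exon) and ONECUT1 (chr15:52790337-52790586, minus strand), each 5′ to 3′.
HNF4A distal: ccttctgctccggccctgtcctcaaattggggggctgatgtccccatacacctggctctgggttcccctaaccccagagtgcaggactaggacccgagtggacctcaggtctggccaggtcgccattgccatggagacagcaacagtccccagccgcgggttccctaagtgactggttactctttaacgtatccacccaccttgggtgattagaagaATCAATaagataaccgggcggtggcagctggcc
HNF4A proximal: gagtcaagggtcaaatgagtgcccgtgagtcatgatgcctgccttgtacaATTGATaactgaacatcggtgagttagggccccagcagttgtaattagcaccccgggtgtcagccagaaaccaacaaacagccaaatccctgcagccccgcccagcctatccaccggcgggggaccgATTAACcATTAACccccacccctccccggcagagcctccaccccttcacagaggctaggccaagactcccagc
CEBPB: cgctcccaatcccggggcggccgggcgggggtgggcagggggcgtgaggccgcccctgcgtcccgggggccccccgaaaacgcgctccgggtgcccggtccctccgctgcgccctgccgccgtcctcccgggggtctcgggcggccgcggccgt
ONECUT1: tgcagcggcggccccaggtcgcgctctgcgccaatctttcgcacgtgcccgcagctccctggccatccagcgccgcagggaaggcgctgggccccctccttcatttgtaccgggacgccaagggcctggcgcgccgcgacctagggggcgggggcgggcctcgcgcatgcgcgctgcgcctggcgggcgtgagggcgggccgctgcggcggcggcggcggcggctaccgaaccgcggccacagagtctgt
The distal HNF4A window held the ONECUT core at 33 to 28 bases before the start, and the proximal window held it at 200 to 195 bases, beside HNF1 elements at 73 to 68 and 66 to 61 bases. The CEBPB window shown, at the second of its RefSeq starts, had a TATA box at 29 to 24 bases and a TGACG core at 57 to 53 bases before its RefSeq start, both within the annotated first exon and so outside the printed stretch. The window at the other CEBPB start held none of the 7 motifs and had a GC content of 75.6%. The ONECUT1 window held none of the 7 motifs, had a GC content of 76.8% and lacked TATAAA. It lies inside the annotated span of the gene (chr15:52756989-52791078), downstream of the annotated gene start and outside the annotated exons. Sequence before that annotated start was not searched. The CEBPB window shown was as GC-rich, at 77.6%, whereas the HNF4A windows had 58.4% and 58.0%.

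CEBPB (ENSG00000172216, chr20:50190734-50192689, plus strand, a gene of a single exon) encodes C/EBPβ, a leucine zipper factor that is induced in the acute phase and stress responses. Its level was 63.4 and 66.3 CPM with DMSO, 104 and 118 with compound 4, 101 and 163 with compound 5, and 79.9 and 106 with compound 6. All 6 treated libraries were above both DMSO libraries, and the compound 5 libraries were the farthest apart. The log2-fold change was 1.03 ± 0.21 (SE) with compound 5, 2.04-fold, with an adjusted p of 0.023 in edgeR's test. With compound 4 it was 0.77 ± 0.22, with an adjusted p of 0.052 in edgeR's test without and 0.018 with the replicate block, and it was called under 5 of 6 other settings of the analysis. With compound 6 it was 0.52 ± 0.22, with a 95% interval of 0.04 to 1.00 and an adjusted p of 0.24 in the same test (0.0075 without a filter on low counts). Within day 1 and day 2, the differences were 0.71 and 0.82 with compound 4, 0.66 and 1.29 with compound 5, and 0.33 and 0.67 with compound 6. Their shared sign follows from the lack of overlap with DMSO and is no further evidence. The size with compound 5 rested on its replicate 2: without this library the log2-fold change was 0.64 (adjusted p = 0.044 in edgeR's test), and without replicate 1 it was 1.32 (0.014). Without DMSO replicate 1 or 2 the adjusted p with compound 5 was 0.12 or 0.14. CEBPB-AS1, which overlaps CEBPB by 765 bp on the opposite strand, had 1 to 6 counts per library, against 619 to 2871 for CEBPB.

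CEBPA (ENSG00000245848, chr19:33299934-33302564, minus strand) encodes C/EBPα, the member of the same family that is known for maintaining the quiescent, metabolic state of hepatocytes. It had 138 and 154 CPM with DMSO, 154 and 136 with compound 4, 87.5 and 143 with compound 5, and 110 and 119 with compound 6. The compound 4 libraries overlapped those of DMSO, 1 compound 5 library lay far below and 1 within the DMSO range, and both compound 6 libraries lay below. The log2-fold changes were −0.01 ± 0.19, −0.34 ± 0.19 and −0.35 ± 0.20 with compounds 4, 5 and 6, with adjusted p-values of 0.98, 0.28 and 0.37 in edgeR's test. Without compound 5 replicate 2, the change with compound 5 was −0.74 with an adjusted p of 0.016, so that this library decided the call. CEBPA-DT, a noncoding transcript that starts 293 bp away on the opposite strand, fell with compound 5 (5.43 and 4.61 CPM with DMSO, 1.89 and 2.62 with compound 5, log2-fold change −1.13, adjusted p = 0.038 in edgeR's test). With compounds 4 and 6, the log2-fold changes of CEBPA-DT were −0.20 and −0.07.

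CEBPA and CEBPB share a high GC content, 65.9% and 66.2% of exon bases against a median of 48.7% over the genes, and the highest 10% of genes start at 61.7%. Both were higher in replicate 2 than in replicate 1 of compound 5, by 0.70 each on the log2 scale. The median of this difference was 0.16 over the highest 10% of genes by GC content and 0.00 over all genes. Against DMSO, the median log2-fold change of these GC-rich genes was −0.02 with compound 5, 0.05 with compound 4 and 0.02 with compound 6, and the part of GC content in the C/EBP values was not tested. Since both genes differed by the same amount, their ratio was necessarily nearly the same in these replicates. Per kb, the ratio of CEBPB to CEBPA was 0.618 and 0.579 with DMSO, 0.906 and 1.17 with compound 4, 1.55 and 1.54 with compound 5, and 0.98 and 1.20 with compound 6. CEBPB was thus below CEBPA in both DMSO libraries and above it in both compound 5 libraries, with compounds 4 and 6 between. These ratios were not tested.

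ONECUT1 (ENSG00000169856, chr15:52756989-52791078, minus strand) had 5.74 and 5.53 CPM with DMSO, 2.81 and 2.13 with compound 4, 5.19 and 4.21 with compound 5, and 4.32 and 2.46 with compound 6. The raw counts were 56 and 66 with DMSO and 30 and 28 with compound 4. All treated libraries were below both DMSO libraries, and replicate 2 of compound 6 was in the range of compound 4. With compound 4 the gene fell by 1.19 on the log2 scale (SE 0.31, 95% interval −1.90 to −0.49, adjusted p = 0.043 in edgeR's test), a 2.29-fold lower level. With compound 5 the log2-fold change was −0.27, with an interval of −0.92 to 0.38, and with compound 6 it was −0.73, with an interval of −1.42 to −0.04 and an adjusted p of 0.25 in the same test. Within day 1 and day 2, the difference with compound 4 was −0.91 and −1.20. The call with compound 4 was lost with DESeq2 (adjusted p = 0.057) and in edgeR's test without DMSO replicate 1 (0.14), DMSO replicate 2 (0.21), compound 4 replicate 1 (0.073) or compound 4 replicate 2 (0.23), while the log2-fold change was between −1.41 and −1.0 when any library was left out.

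HNF4A (ENSG00000101076, chr20:44355700-44434596, plus strand), the nuclear receptor that binds more liver promoters than most other factors, was not called with any compound. It had 314 and 298 CPM with DMSO, 324 and 327 with compound 4, 254 and 294 with compound 5, and 326 and 318 with compound 6. The libraries of compounds 4 and 6 were slightly above those of DMSO and those of compound 5 slightly below. The log2-fold changes were 0.09 (95% interval −0.14 to 0.32), −0.16 (−0.39 to 0.07) and 0.07 (−0.16 to 0.30), with adjusted p-values of 0.62, 0.33 and 0.74 in edgeR's test. HNF4A-AS1, an antisense transcript inside the gene, had 2 to 16 counts per library and was not tested.

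NR5A2 (ENSG00000116833, chr1:200027602-200177424, plus strand), or LRH-1, is the nuclear receptor that acts on bile acid synthesis and reverse cholesterol transport. Its level was 4.82 and 4.19 CPM with DMSO, 5.82 and 4.33 with compound 4, 3.29 and 4.44 with compound 5, and 3.14 and 2.84 with compound 6. With compound 6 both libraries lay below those of DMSO, whereas with compound 4 a library lay above and with compound 5 a library below the DMSO range, and the other was within it. The log2-fold change with compound 6 was −0.59 ± 0.28, with a 95% interval of −1.22 to 0.05 and an adjusted p of 0.30 in edgeR's test. With compounds 4 and 5 it was 0.17 and −0.20, with intervals of −0.43 to 0.77 and −0.80 to 0.39. At 30 to 78 counts per library, changes of this size were not resolved.

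FOXA1 (ENSG00000129514, chr14:37589984-37596059, minus strand), the pioneer factor that opens liver enhancers, had 61.3 and 59.5 CPM with DMSO. It had 51.7 and 47.8 CPM with compound 4, 48.5 and 49.5 with compound 5, and 45.7 and 42.4 with compound 6. All treated libraries lay below both DMSO libraries, and replicates were close together. The log2-fold changes were −0.28 ± 0.11, −0.30 ± 0.11 and −0.46 ± 0.11, with adjusted p-values of 0.13, 0.11 and 0.082 in edgeR's test. For compound 6 the interval was −0.70 to −0.21, and the gene was called when only the 4 samples compared were fitted (adjusted p = 0.029) or when no filter on low counts was used (0.038). TTC6, which lies on the opposite strand and overlaps FOXA1 by 213 bp, had 26 to 55 counts per library, against 447 to 869 for FOXA1. Whether the counting used the strand is not given in the sources used here.

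FOXA2 (ENSG00000125798, chr20:22581005-22585455, minus strand), the family member linked to bile acid and fasting metabolism, had 56.7 and 44 CPM with DMSO, 48.0 and 39.7 with compound 4, 51.5 and 53.4 with compound 5, and 40.6 and 41.7 with compound 6. The DMSO libraries were far apart, so that those of compounds 4 and 5 overlapped them, while both compound 6 libraries were below. The log2-fold changes were −0.20 (95% interval −0.53 to 0.13), 0.06 (−0.27 to 0.39) and −0.29 (−0.62 to 0.05), with adjusted p-values of 0.43, 0.81 and 0.33 in edgeR's test. LINC00261, a noncoding gene that starts 2363 bp from the end of FOXA2 on the same strand, had log2-fold changes of −0.48, −0.02 and −0.40, with adjusted p-values of 0.073, 0.94 and 0.20.

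FOXA3 (ENSG00000170608, chr19:45863989-45873797, plus strand), the FOXA gene that is expressed last in liver development, had 41.6 and 38.1 CPM with DMSO, 47.0 and 47.8 with compound 4, 50.1 and 52.5 with compound 5, and 37.3 and 46.1 with compound 6. The libraries of compounds 4 and 5 were above those of DMSO, and those of compound 6 lay on either side of them. The log2-fold changes were 0.25 ± 0.13, 0.37 ± 0.13 and 0.07 ± 0.13, with adjusted p-values of 0.25, 0.11 and 0.82 in edgeR's test. The estimates of FOXA3 and FOXA1 thus had opposite signs, but the sign of FOXA3 with compound 6 turned when 1 library was left out (−0.09 to 0.20). Per kb, the ratio of FOXA3 to FOXA1 was 1.23 and 1.16 with DMSO, 1.65 and 1.82 with compound 4, 1.88 and 1.93 with compound 5, and 1.48 and 1.98 with compound 6, without overlap with DMSO. This ratio was not tested, and neither gene was called with any compound in the fit reported. With compounds 4 and 5 all FOXA1 libraries were below DMSO and all FOXA3 libraries above it. Their ratio was thus necessarily higher there and adds nothing to the single genes. Whether the ratio lies above or below 1 also depends on the length used for FOXA1. For single genes, a lack of overlap was seen in 58.4%, 59.5% and 55.4% of all genes with compounds 4, 5 and 6, which is no background for a ratio.

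In direct comparisons of the compounds, no member passed the threshold. There were 24 such comparisons of members, 8 for each of the 3 pairs of compounds, with p-values adjusted over all 13400 genes. Between compounds 4 and 6, 0 of 8 members were called, against 0.0% of all genes. Between compounds 4 and 5, 0 were called, against 0.313%, and between compounds 6 and 5, 0 were called, against 1.03%. At an unadjusted p under 0.05 in edgeR's test, 1, 2 and 4 members stood out, against 7.05%, 16.2% and 18.5% of all genes, and DESeq2 called 0 members in each pair. Since the concentrations differed, structure and concentration cannot be told apart here.

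Compounds 4 and 6, which differ by their tert-butyl and cyclohexyl groups, were closest in HNF4A, where the difference of 4 from 6 was 0.01 on the log2 scale with an interval of −0.22 to 0.24. For FOXA1, FOXA2 and FOXA3 it was 0.17 (−0.07 to 0.42), 0.09 (−0.24 to 0.42) and 0.18 (−0.11 to 0.48). For CEBPA and CEBPB it was 0.34 (−0.10 to 0.78) and 0.25 (−0.22 to 0.73), and for ONECUT1 −0.46 (−1.20 to 0.28). NR5A2 was the widest apart, with 0.75 (0.13 to 1.38) and an adjusted p of 0.59 in edgeR's test. Both NR5A2 libraries of compound 4 were above both of compound 6. A p that misses the threshold does not show that the compounds act alike, and these intervals reach differences of 0.24 on the log2 scale at the least.

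Compound 4 differed most from compound 5 in ONECUT1, by −0.93 on the log2 scale (−1.63 to −0.23, adjusted p = 0.20 in edgeR's test), and neither of its libraries reached the range of compound 5. HNF4A was 0.25 (0.02 to 0.48) higher with compound 4 than with compound 5, with an adjusted p of 0.28. The differences of the other 6 members were between −0.26 for FOXA2 and 0.37 for NR5A2. Compound 6 differed from compound 5 by −0.51 in CEBPB (−0.98 to −0.03, adjusted p = 0.24 in edgeR's test), −0.35 in FOXA2 (−0.68 to −0.02, 0.25), −0.30 in FOXA3 (−0.59 to −0.01, 0.26) and 0.23 in HNF4A (0.00 to 0.46, 0.26). CEBPB was called in this pair when no filter on low counts was used (adjusted p = 0.0058). Among the other 4 members the differences were between −0.47 for ONECUT1 and −0.01 for CEBPA.

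Among other liver-enriched transcription factors, 36 of 38 listed genes were tested, and most were not called. With compound 4, 3 were higher and 2 lower, with compound 5, 5 were higher and 0 lower, and with compound 6, 0 were called in edgeR's test (6 higher and 0 lower at an unadjusted p under 0.05, and 2 higher with DESeq2). The median log2-fold changes of the list were 0.09, 0.04 and −0.01, beside 0.01, 0.00 and 0.02 over all genes. KLF9, a glucocorticoid-inducible repressor, rose with compounds 4 (log2-fold change 1.23, adjusted p = 0.033 in edgeR's test) and 5 (1.65, 0.014). Its levels were 4.10 and 3.27 CPM with DMSO, 8.26 and 8.97 with compound 4, 14.7 and 8.59 with compound 5, and 9.32 and 12.5 with compound 6, where it had a log2-fold change of 1.57 and an adjusted p of 0.054. ESRRA, the orphan receptor of mitochondrial genes, rose with compounds 4 (0.60) and 5 (0.59). CEBPG, the C/EBP protein without an activation domain, rose with compound 4 (0.73). Its log2-fold changes with compounds 5 and 6 were 0.68 and 0.62, without a call. With compound 5, HNF4G (0.64), the paralog of HNF4A, KLF15 (0.73), a regulator of gluconeogenesis, and NFIL3 (0.87), a repressor of the circadian output, rose as well. The bile acid receptor NR1H4 (−0.74) and GATA6 (−0.83), a factor of early liver development, fell with compound 4. The lowest value with compound 6 was −0.44 for NR2F2.

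The list of proteins that bind or restrain the members had 25 of 27 genes tested. With compounds 4, 5 and 6, 3, 5 and 1 of them rose and 0 fell (2, 1 and 0 lower at an unadjusted p under 0.05 in edgeR's test, and 0 with DESeq2), and the medians were 0.16, 0.26 and 0.15. TRIB1, a pseudokinase that directs C/EBPα to degradation, rose with all 3 compounds, from 54.0 and 52.8 CPM with DMSO to 91.0 and 113, 113 and 98.4, and 86.2 and 113 CPM. Its log2-fold changes were 0.93, 0.98 and 0.90, with adjusted p-values of 0.0097, 0.01 and 0.048 in edgeR's test. NR0B2, or SHP, the receptor without a DNA-binding domain that inhibits NR5A2 and HNF4A, had 69.6 and 62.7 CPM with DMSO, 119 and 111 with compound 4, 146 and 141 with compound 5, and 92.6 and 99.6 with compound 6. It rose with compounds 4 (0.80, adjusted p = 0.0043 in edgeR's test) and 5 (1.12, 0.0019), and had a log2-fold change of 0.54 with an adjusted p of 0.054 with compound 6. DDIT3, or CHOP, the stress-induced partner that blocks C/EBP binding, had 13.9 and 11.1 CPM with DMSO and 70.1 and 25.7 with compound 5. It was called with compound 5 (1.93, adjusted p = 0.041 in edgeR's test), where the libraries were far apart. Its levels were 20.3 and 35.5 CPM with compound 4 and 19.4 and 38.1 with compound 6, also above both DMSO libraries. There the log2-fold changes were 1.17 and 1.20, with adjusted p-values of 0.16 and 0.23 in the same test. PPARGC1A, the coactivator of HNF4A in fasting, rose with compound 5 (0.89), as did the repressor SNAI1 (1.46), and ID2, an inhibitor of helix-loop-helix factors, rose with compound 4 (0.48).

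Known targets of the members were taken from 5 overlapping lists, 73 genes in all, of which 54 were tested and 3 were members themselves. With compound 4, 4 rose and 11 fell, with compound 5, 4 rose and 5 fell, and with compound 6, 1 rose and 1 fell. DESeq2 called 4 higher and 12 lower, 5 and 10, and 3 and 8, respectively. The medians were −0.19, −0.18 and −0.19, below the 0.01, 0.00 and 0.02 of all genes. Beside these counts, 5.6% of all tested genes were higher and 3.91% lower with compound 4, 5.35% and 2.95% with compound 5, and 0.493% and 0.0821% with compound 6. The same shares are the background of each list of factors, partners and targets described here.

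Of the HNF4A targets, 25 of 31 were tested, and 0 rose while 8, 2 and 1 fell with compounds 4, 5 and 6. With DESeq2, 0 rose and 8, 6 and 5 fell, and at an unadjusted p under 0.05 in edgeR's test 1, 0 and 0 were higher and 10, 7 and 7 lower. The medians were −0.33, −0.26 and −0.19. APOC3, an apolipoprotein of triglyceride-rich particles, had 60.2 and 44.2 CPM with DMSO, 20.5 and 11.3 with compound 4, 17.0 and 20.0 with compound 5, and 25.7 and 16.2 with compound 6. It fell by 1.72 and 1.49 on the log2 scale with compounds 4 and 5 (adjusted p = 0.0099 and 0.017 in edgeR's test) and had a log2-fold change of −1.31 with an adjusted p of 0.066 with compound 6. With compound 4, the uptake transporter SLC22A7 (−1.30), the apolipoproteins APOA4 (−1.10) and APOB (−0.61), the iron carrier TF (−0.52) and MTTP (−0.78), which loads lipid onto apolipoprotein B, fell as well. MTTP also fell with compound 5 (−0.75), and APOA4 fell with compound 6 (−1.09, adjusted p = 0.048 in edgeR's test).

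The FOXA targets, 16 of 17 tested, had 0 genes higher and 4 lower with compound 4, 1 and 1 with compound 5, and 0 called with compound 6 (2 higher and 5 lower at an unadjusted p under 0.05 in edgeR's test, and 4 lower with DESeq2), with medians of −0.11, −0.16 and −0.14. The genes that fell with compound 4 were APOA1 (−0.90), AFP (−0.71), APOB and TF, and with compound 5 CPS1 (−0.60), the entry enzyme of the urea cycle, fell and the fibrinogen gene FGB (0.53) rose. With compound 6 the list ran from −0.91 for APOA1 to 1.16 for TAT. Of the C/EBP targets, 16 of 26 were tested, with 2 higher and 2 lower with compound 4, 3 and 2 with compound 5, and 0 called with compound 6 (3 higher and 4 lower at an unadjusted p under 0.05 in edgeR's test, and 1 and 2 with DESeq2), and medians of −0.16, −0.01 and −0.16. HP, the hemoglobin-binding acute phase protein, fell by 1.47 with compound 4 and 0.90 with compound 5 on the log2 scale (adjusted p = 0.005 and 0.026 in edgeR's test). Its levels were 33.9 and 37.9 CPM with DMSO, 16.0 and 10.1 with compound 4, 17.8 and 20.6 with compound 5, and 24.1 and 20.3 with compound 6. The urea cycle enzyme ASS1 (0.48 and 0.54) and the carboxylesterase CES1 (0.61 and 0.62) rose with compounds 4 and 5. FGA, another fibrinogen chain, fell with compound 4 (−0.62). With compound 6 the C/EBP targets ran from −0.70 for HP to 1.16 for TAT.

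The ONECUT1 targets, 7 of 9 tested, had 0 genes called with any compound by edgeR or DESeq2, and at an unadjusted p under 0.05 in edgeR's test 0, 1 and 0 were higher and 0 lower, with medians of 0.09, −0.16 and −0.12. With compound 4, where ONECUT1 fell, the highest value was 0.29 for G6PC1, which makes glucose from its phosphate. With compound 5 the ends were −0.36 for PFKFB1 and 0.77 for G6PC1, and with compound 6 they were −0.29 for FOXA2 and 0.07 for HNF4A. The NR5A2 targets, 15 of 18 tested, had 2 higher and 2 lower with compound 4, 1 and 1 with compound 5, and 1 and 0 with compound 6, with medians of −0.19, −0.30 and −0.16. DESeq2 called 2 higher and 2 lower, 1 and 4, and 2 and 2, and at an unadjusted p under 0.05 in edgeR's test 2 were higher and 3 lower, 1 and 5, and 3 and 3. ABCC3, an exporter of bile acids and glucuronides, had 63.0 and 51.2 CPM with DMSO, 130 and 140 with compound 4, 56.6 and 52.0 with compound 5, and 133 and 135 with compound 6. It rose with compounds 4 (1.25, adjusted p = 0.0016 in edgeR's test) and 6 (1.24, 0.0068), while the compound 5 libraries were within the DMSO range. SCARB1, the receptor for high-density lipoprotein, fell with compound 5 (−0.65). The other NR5A2 targets called were NR0B2, which rose with compounds 4 and 5, and APOA1 and AFP, which fell with compound 4. NR0B2 is also in the list of proteins that bind or restrain the members. APOA1 and AFP are also FOXA targets, and APOA1 is also an HNF4A target, so these calls are not separate.

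The genes whose levels ran most like those of the called members over the 8 libraries were found among 11470 protein-coding genes. For CEBPB they were YBX3 (Pearson r = 0.97), RNF114 (0.96) and DGKZ (0.96). For ONECUT1 they were SLC46A1 (0.98), ALDH18A1 (0.96) and MRS2 (0.96). The range of SLC46A1, from 65.6 CPM with compound 4 to 99.7 with DMSO, was narrower in fold than that of ONECUT1, from 2.13 to 5.74 CPM. Between members, the highest values were 0.85 for FOXA3 and CEBPB and 0.75 for CEBPA and NR5A2. These values are descriptions over libraries that share groups and scaling, and no test was made.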

How the data were processed

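RNA from 8 samples was sequenced as paired-end reads from directional libraries. The authors estimated transcript abundance with Salmon 1.5.0 on GENCODE transcripts of GRCh38, used tximeta to sum it per gene, and deposited the counts as whole numbers that were not normalized. The labels mark replicate 1 of DMSO and of compound 4 as merged from 2 S numbers, and they do not say what these numbers stand for. Symbols were matched for 60089 of 60230 identifiers, and positions and exon lengths came from GENCODE 29.

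The counts were tested with edgeR 4.0.16 in R 4.3.3 (TMM, filterByExpr at a minimum count of 10, quasi-likelihood test, 1 fit of all 8 samples without a block, Benjamini-Hochberg adjustment, threshold 0.05). The SE is the log2-fold change divided by the square root of F, and intervals are at 95%. Alternatives were a block for the replicate number, a fit of the 4 samples compared, DESeq2 1.42.0 or only its size factors, no filter, at least 10 counts in all samples, and fits that left out 1 library. The day in the labels, taken as the replicate number, is the source of the pairing, and replicate differences correlated between −0.16 and 0.30 over the pairs of groups. Likeness used log2(CPM + 0.5) in genes with a mean of at least 1 CPM. Members, lists and tests were chosen with earlier results of these data known. Named genes were all members, called genes of each list (the ends where more than 6 were called, and the highest and lowest where none was), neighbours within 5000 bases, and the 3 genes most like each called member. A gene that this rule takes is not reported here. Tables were made in Python 3.11.15 with pandas 2.3.3.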

Additional observations from a re-analysis of the deposited data

How the results depend on the processing

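Each group had 2 libraries, and the counts of ONECUT1 and NR5A2 were small. With compound 4, 1 member was called in the fit reported and 2 with the replicate block, with only the 4 samples compared, without a filter and with 10 counts in every sample, since CEBPB was added. With DESeq2 it was also 1, which was CEBPB in place of ONECUT1. Leaving out 1 library gave 0 to 2 members with compound 4 and 0 to 2 with compound 5. With compound 6 the number was 0, and 1 with only the 4 samples compared and 2 without a filter. Between compounds 6 and 5 it was 0, and 1 without a filter. With the replicate block, the difference in CEBPA between compounds 6 and 5 turned from −0.01 to 0.01, and leaving out 1 library gave −0.32 to 0.39. The sign also turned when 1 library was left out for CEBPA (−0.12 to 0.08) and NR5A2 (−0.06 to 0.37) with compound 4, FOXA2 with compound 5 (−0.11 to 0.24) and FOXA3 with compound 6 (−0.09 to 0.20). Between compounds 4 and 6 it turned for HNF4A (−0.01 to 0.04), FOXA2 (−0.06 to 0.22) and ONECUT1 (−0.81 to 0.00), and between compounds 4 and 5 for FOXA1 (−0.04 to 0.07) and CEBPB (−0.55 to 0.14). None of these was called, and the cause was not tested.

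Of the log2-fold changes of members, 277 of those under the other settings and 363 of those without 1 library kept their direction and their side of the threshold, while 9 and 3 were newly called and 1 and 6 lost their call. The replicate block changed no other call of a member. Over all genes, 1275, 1112 and 77 were called with compounds 4, 5 and 6, and 2383, 2431 and 1355 without a filter. For compound 6 the number was 547 with DESeq2, 1023 with only the 4 samples compared, 198 with 10 counts in every sample and 47 with DESeq2's size factors. Between compounds 4 and 6 it was 0, and 59 with DESeq2, 1 with the replicate block, 5 with 10 counts in every sample and 259 without a filter. Between compounds 4 and 5 it was 42, and 210, 128, 65 and 750 with these settings and 10 with only the 4 samples compared. Between compounds 6 and 5 it was 138, and 379 with DESeq2, 269 with the replicate block, 49 with only the 4 samples compared and 990 without a filter. Leaving out 1 library gave 43 to 1681, 46 to 1814 and 2 to 432 genes for compounds 4, 5 and 6, and 0 to 13, 9 to 25 and 0 to 105 for compounds 4 and 6, 4 and 5, and 6 and 5.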
